A study of Arabidopsis thaliana with 6 samples.

Results

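The genes described here are ETHE1 and 9 genes of mitochondrial branched-chain amino acid breakdown and the electron transfer that goes with it, followed in Arabidopsis thaliana seeds labelled as fresh. The 10 members were chosen from the 32833 genes of the expression table by name, because ETHE1 rose strongly in the mutant and the other 9 act in a connected pathway. ETHE1 is therefore described without a test. All 10 members passed the filter on low values (a mean of at least 1 over all libraries), which left 14663 genes to test. The groups were wild-type Columbia-0 (Col-0) and the asf1a1b double mutant, hit in ASF1A and ASF1B, which encode the histone chaperone ASF1, with 3 RNA-seq libraries of fresh seeds from each. No other treatment, age or allele name is given in the labels, which speak both of freshly harvested seeds and of cold stratification, so the state that was sequenced is uncertain. Separate plants or harvests behind the replicates are not mentioned, and the p-values therefore measure the spread between libraries, some or all of which may be technical.

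Leucine, isoleucine and valine first lose their amino group to a branched-chain aminotransferase, and the branched-chain keto acid dehydrogenase complex then turns the keto acids into acyl-CoAs. In the leucine branch, isovaleryl-CoA dehydrogenase (IVD) and methylcrotonyl-CoA carboxylase act next. Electrons from IVD and from the D-2-hydroxyglutarate dehydrogenase D2HGDH pass through the electron transfer flavoprotein (ETF) and its ubiquinone oxidoreductase ETFQO into the respiratory chain, and plants use this route when carbohydrate runs short, as in darkness. ETHE1, annotated by RefSeq as GLY3 and also called GLX2-3, is a mitochondrial sulfur dioxygenase of the glyoxalase II fold that oxidises persulfides formed in cysteine breakdown, and it is needed for seed development in Arabidopsis.

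Levels are TPM as the authors rescaled them between libraries, called rescaled TPM below, a scale per transcript length on which genes can be compared. Recovered depth was 44306711 to 47993782 reads per library in Col-0 and 42771399 to 56017646 in asf1a1b. ASF1A fell from 16.7 ± 1.23 rescaled TPM in Col-0 to 2.33 ± 0.237 in asf1a1b and ASF1B from 2.97 ± 1.21 to 0.256 ± 0.0902 (mean ± SD, n = 3 each), with adjusted p-values of 0.00022 and 0.00276 by limma. Transcripts of 9 seed marker genes, such as the cruciferin CRA1 and the oleosin OLEO1, lay between 652 and 34099 rescaled TPM in every library. Of these 9, SESA1 rose and CRU2 fell, where 30.6% of all tested genes passed the test in either direction. The summed level of the 9 markers was highest in replicate 1 of each genotype. It was 124870 against 79961 and 81932 in Col-0, and 109742 against 81729 and 96775 in asf1a1b. The libraries numbered 1 stood apart in both genotypes: over all tested genes, deviations from the genotype mean correlated at 0.427 between Col-0 replicate 1 and asf1a1b replicate 1. In whole seeds, a change in the share of cells that hold a transcript and a change in its amount per cell cannot be told apart.

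The 300 bases around the annotated gene start (250 before to 50 after) are shown for ETHE1 and DIN4, the members with the largest ratios between genotypes, for IVD, whose level in asf1a1b was the highest, and for ETFQO, whose ratio was the smallest. They were read from the RefSeq genome TAIR10.1 at chr1:19993409-19993708 (minus strand), chr3:4384387-4384686 (minus strand), chr3:16624994-16625293 (minus strand) and chr2:18020859-18021158 (plus strand). Capitals mark matches, on either strand, to ACGT, the core bound by bZIP factors, and to ACTCAT, an element described in Arabidopsis for the proline dehydrogenase gene and bound by group S bZIP factors.
ETHE1: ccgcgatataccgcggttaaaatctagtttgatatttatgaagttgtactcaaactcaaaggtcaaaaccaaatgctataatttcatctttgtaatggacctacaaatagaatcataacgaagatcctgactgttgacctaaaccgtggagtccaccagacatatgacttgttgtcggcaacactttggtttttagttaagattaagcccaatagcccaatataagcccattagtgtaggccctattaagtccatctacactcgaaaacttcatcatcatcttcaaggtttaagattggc
DIN4: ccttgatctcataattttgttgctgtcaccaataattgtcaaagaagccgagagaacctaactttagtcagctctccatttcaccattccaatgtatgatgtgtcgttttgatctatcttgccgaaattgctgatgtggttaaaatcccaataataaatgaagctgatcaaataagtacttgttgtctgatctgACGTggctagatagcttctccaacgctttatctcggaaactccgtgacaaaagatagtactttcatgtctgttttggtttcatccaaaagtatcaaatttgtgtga
IVD: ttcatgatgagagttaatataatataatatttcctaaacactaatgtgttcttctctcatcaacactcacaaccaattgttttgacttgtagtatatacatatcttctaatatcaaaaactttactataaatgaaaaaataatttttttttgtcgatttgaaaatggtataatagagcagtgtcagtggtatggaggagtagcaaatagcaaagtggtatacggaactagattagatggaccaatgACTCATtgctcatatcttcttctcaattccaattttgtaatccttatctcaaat
ETFQO: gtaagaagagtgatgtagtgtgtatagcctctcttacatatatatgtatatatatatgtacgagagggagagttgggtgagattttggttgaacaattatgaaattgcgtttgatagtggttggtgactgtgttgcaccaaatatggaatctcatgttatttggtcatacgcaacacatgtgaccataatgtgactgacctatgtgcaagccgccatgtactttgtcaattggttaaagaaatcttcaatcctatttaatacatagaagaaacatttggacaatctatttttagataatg
Neither motif occurred in the windows of ETHE1 and ETFQO. An ACGT core lay in the window of DIN4, starting at position -56 from the gene start, and an ACTCAT element in that of IVD at position -4. Among all 10 members, ACGT was found in 5 windows (also MCCA, MCCB, D2HGDH and AT1G21400) and ACTCAT in 1, while the G-box CACGTG, which contains ACGT, was in none. Of 27443 windows of the same length, those of the protein-coding genes annotated on the chromosomes, 49.9% held ACGT, 14.7% ACTCAT and 7.68% CACGTG. These matches describe letters in the windows and not bound sites.

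ETHE1 (AT1G53580) lies at chr1:19991271-19993458 on the minus strand, with 8 exons. Its transcript was low in wild-type seeds and higher in every mutant library. Col-0 replicates 1, 2 and 3 held 1.69, 1.33 and 2.02 rescaled TPM, and asf1a1b replicates 1, 2 and 3 held 12.9, 27.3 and 26.0. Every asf1a1b library was above every Col-0 library, and asf1a1b replicate 1 was the lowest of the mutant libraries. The means were 1.68 ± 0.342 and 22.1 ± 7.96 (SD, n = 3 each), a ratio of 13.2 and a log2 fold change of 3.05 ± 0.27 (SE) on the log2(rescaled TPM + 1) scale, the 10th largest of 14663. Without both libraries numbered 1 the ratio was 15.9. By its mean level ETHE1 lay above 11.5% of the 14663 tested genes in Col-0 and above 71.1% in asf1a1b, or above 60.5% and 87.1% of all 32833 genes of the table, many of which are hardly expressed. Its values rest on 236 recovered reads in all Col-0 libraries together and 3372 in those of asf1a1b. The authors' deposited table gave a log2 fold change of 3.70 and marked the gene up.

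**Figure D1:**
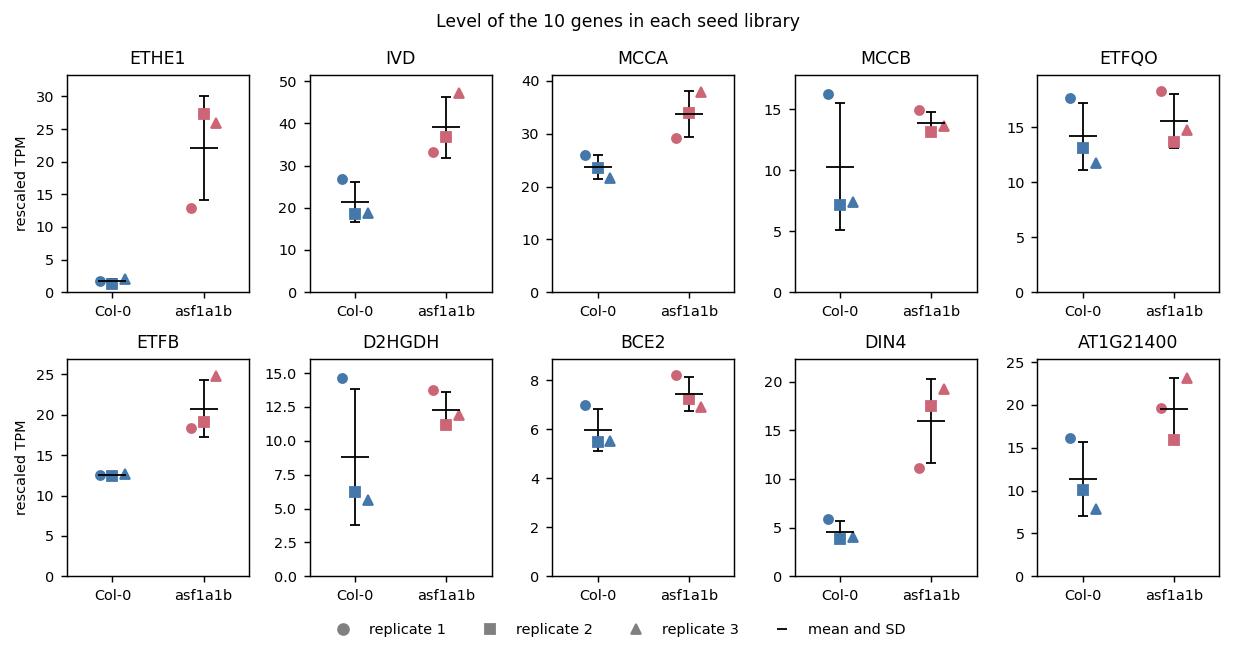
Level of each of the 10 genes, in rescaled TPM (y axis, from 0), in Col-0 (blue) and asf1a1b (red), with 1 marker per library, a horizontal bar for the mean and a vertical bar for the SD (n = 3). ETHE1 ran from 1.33 to 2.02 in Col-0 and from 12.9 to 27.3 in asf1a1b, DIN4 also separated widely, and MCCB and D2HGDH show Col-0 replicate 1 above every other library.

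Of the other 9 members, 4 rose in asf1a1b (DIN4, IVD, ETFB and MCCA), 0 fell and 5 did not pass the test. Among all 14663 tested genes, 30.6% passed and 16.1% passed as higher. The median log2 fold change of the 9 was 0.54, against 0.01 over all tested genes. The genotypes did not overlap for 4 of these 9, all higher in asf1a1b, and 24.6% of all tested genes separated in that direction. The authors' deposited table marked 1 of the 9, DIN4, as up, beside 6.23% of its 15257 genes. In the authors' deposited table every marked gene had an absolute log2 fold change of at least 1.5. The count of 4 that rose became 8 when Col-0 replicate 1 was left out (34.0% of all genes passed). It became 2 without Col-0 replicate 2 (2122 of 14713 genes passed) and 2 without asf1a1b replicate 3 (1767 of 14593).

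The branched-chain keto acid dehydrogenase complex is built of E1 alpha, E1 beta, E2 and E3 subunits. Its E1 beta gene DIN4 (AT3G13450, chr3:4382198-4384436, minus strand), named for its induction in darkness, changed most after ETHE1. Col-0 replicates 1 to 3 held 5.85, 3.80 and 4.02 rescaled TPM and asf1a1b replicates 1 to 3 held 11.1, 17.5 and 19.3. The genotypes did not overlap, with Col-0 replicate 1 the highest wild type and asf1a1b replicate 1 the lowest mutant library. DIN4 rose 3.50-fold, from 4.56 ± 1.12 to 15.9 ± 4.31, a log2 fold change of 1.59 ± 0.23 (SE) with adjusted p = 0.00345 by limma. Without both libraries numbered 1 the ratio was 4.70. DIN4 passed the test under every alternative tried. AT1G21400 (chr1:7493213-7496741, plus strand), an E1 alpha gene, held 16.1, 10.1 and 7.81 rescaled TPM in the wild type and 19.6, 15.9 and 23.1 in the mutant. Its highest wild-type library, replicate 1, was slightly above its lowest mutant library, replicate 2. The ratio was 1.72 and the log2 fold change 0.78 ± 0.25, and the gene just missed the threshold at an adjusted p of 0.0509 by limma. It passed at 0.0358 with the replicate number as a block and at 0.00725 without Col-0 replicate 1. BCE2 (AT3G06850, chr3:2157908-2160669, minus strand), the E2 subunit, was low and nearly even: 6.97, 5.48 and 5.50 in Col-0 and 8.22, 7.21 and 6.90 in asf1a1b. Both genotypes had replicate 1 as their highest library, and the lowest asf1a1b library was just under the highest Col-0 one. BCE2 had a ratio of 1.24 and an adjusted p of 0.156 by limma, and of 0.0499 without Col-0 replicate 1.

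E1 alpha and E1 beta are each encoded by a pair of genes, so the share of each transcript could be followed. DIN4 made up 22.9%, 17.8% and 21.6% of the summed E1 beta level of DIN4 and BCDH BETA1 in Col-0, and 31.5%, 45.9% and 44.3% in asf1a1b. The shares did not overlap between genotypes, and their means were 20.8% ± 2.64 and 40.6% ± 7.93 (SD, n = 3 each). The exact two-sided permutation test gave p = 0.1, the smallest value that 3 against 3 libraries can give, and 0.4 after adjustment over the 4 measures of this kind. BCDH BETA1 itself went from 17.3 ± 2.57 to 23.0 ± 2.09 rescaled TPM without passing the test (adjusted p = 0.0647 by limma). Within E1 alpha, AT1G21400 held 82.2% ± 4.48 of its sum with AT5G09300 in Col-0 and 85.5% ± 3.89 in asf1a1b (exact permutation p = 0.4, adjusted 0.8). That difference of 3.27 percentage points was 1.05 without asf1a1b replicate 3, 1.43 without Col-0 replicate 3 and 5.77 without Col-0 replicate 1. How the authors counted reads that match both genes of a pair is not given in the sources used here.

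**Figure D2:**
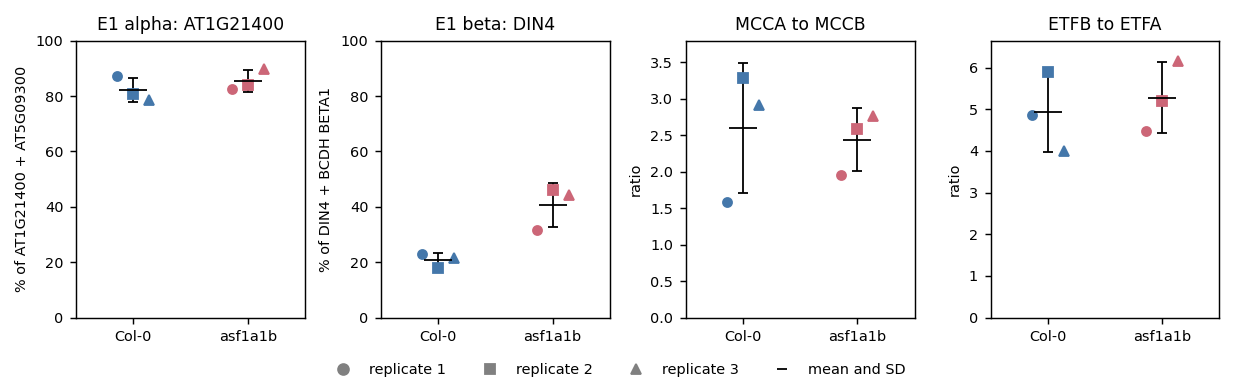
Share of a subunit's summed level held by AT1G21400 and by DIN4 (percent, 1st and 2nd panels) and ratios of MCCA to MCCB and of ETFB to ETFA (3rd and 4th panels), with 1 marker per library and the mean and SD (n = 3). The DIN4 share sits between 17.8% and 22.9% in Col-0 and between 31.5% and 45.9% in asf1a1b, while the other measures overlap between genotypes.

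In the leucine branch, IVD (AT3G45300, chr3:16621452-16625043, minus strand) was the most abundant member in the mutant. The Col-0 libraries held 26.8, 18.5 and 18.7 rescaled TPM and the asf1a1b libraries 33.2, 36.7 and 47.1. All mutant libraries were above all wild-type libraries, of which replicate 1 was the highest. IVD rose 1.83-fold, from 21.4 ± 4.73 to 39.0 ± 7.23, or 0.84 ± 0.19 on the log2 scale (adjusted p = 0.0145 by limma). It missed the threshold without Col-0 replicate 2 (adjusted p = 0.0619 by limma) and without asf1a1b replicate 3 (0.063). MCCA (AT1G03090, chr1:739544-744184, plus strand), the biotin-carrying alpha subunit of methylcrotonyl-CoA carboxylase, was the most abundant member in Col-0. It held 26.0, 23.5 and 21.5 there and 29.1, 34.0 and 37.9 in asf1a1b, again with no overlap. MCCA rose 1.42-fold (log2 fold change 0.49 ± 0.13, adjusted p = 0.0298 by limma), and lost its call when replicate 2 or 3 of either genotype was left out (0.0893 to 0.123). MCCB (AT4G34030, chr4:16301027-16304099, plus strand), the beta subunit, held 16.3, 7.17 and 7.38 in Col-0 and 14.9, 13.1 and 13.6 in asf1a1b. Its highest value of all was in Col-0 replicate 1, at 2.24 times the mean of the other Col-0 libraries. With it, the log2 fold change was 0.49 ± 0.28 and the adjusted p 0.213 by limma, and without it they were 0.85 and 0.00298. The ratio of MCCA to MCCB was 2.60 ± 0.887 in Col-0 and 2.44 ± 0.431 in asf1a1b (exact permutation p = 0.8, unchanged by adjustment).

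Among the genes of electron transfer, ETFB (AT5G43430, chr5:17453517-17455297, plus strand), the beta subunit of ETF, rose and ETFQO did not pass the test. ETFB held 12.5, 12.4 and 12.7 rescaled TPM in the wild type and 18.3, 19.1 and 24.8 in the mutant. Its Col-0 libraries lay closer together than those of any other member (SD 0.134), and all were below the mutant libraries. ETFB rose 1.66-fold, or 0.67 ± 0.14 on the log2 scale (adjusted p = 0.0105 by limma), and passed under every alternative tried. ETFQO (AT2G43400, chr2:18021109-18025292, plus strand) held 17.6, 13.1 and 11.8 in Col-0 and 18.3, 13.7 and 14.7 in asf1a1b. Its groups overlapped over most of their range, with replicate 1 the highest in each. The ratio was 1.10, the log2 fold change 0.14 ± 0.18 and the adjusted p 0.584 by limma. D2HGDH (AT4G36400, chr4:17197188-17200932, plus strand), which feeds electrons into ETF, held 14.6, 6.25 and 5.62 in Col-0 and 13.7, 11.2 and 11.9 in asf1a1b. Its Col-0 replicate 1 was the highest of all 6 libraries, at 2.46 times the mean of the other Col-0 libraries. The log2 fold change was 0.54 ± 0.31 with an adjusted p of 0.213 by limma, and 0.93 with 0.00337 without that library. ETFB exceeded ETFA, the alpha subunit, 4.92 ± 0.949 times in Col-0 and 5.28 ± 0.846 times in asf1a1b (exact permutation p = 0.7, adjusted 0.8).

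Col-0 replicate 1 was the highest of its group in 8 of the 10 members, against 44.7% of all tested genes, and at least 2 times the mean of the other Col-0 libraries in 2 members, against 4.94% of all genes. Over all tested genes the median of that ratio was 1.01. In asf1a1b, replicate 1 was the lowest library in 5 members (36.7% of all genes) and the highest in 4 (44.6%). Without Col-0 replicate 1, 8 of the 9 tested members passed, where 34.0% of all genes did. Without both libraries numbered 1, a choice made after seeing the data, 8 of 9 passed again, where 51.8% of all genes did. ETFQO was the exception in both fits. The seed markers were uneven in this respect. Col-0 replicate 1 held 3.02 times the mean of the other Col-0 libraries for the cruciferin CRU3, 2.33 times for the albumin SESA1 and 2.10 times for CRA1. The same ratio was 1.85 for SESA3, 1.65 for EM1, 1.12 for CRU2, 0.98 for EM6, 0.963 for OLEO2 and 0.814 for OLEO1. It was 2.24 for MCCB and 2.46 for D2HGDH. The part of these differences between libraries in the results was not tested.

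**Figure D3:**
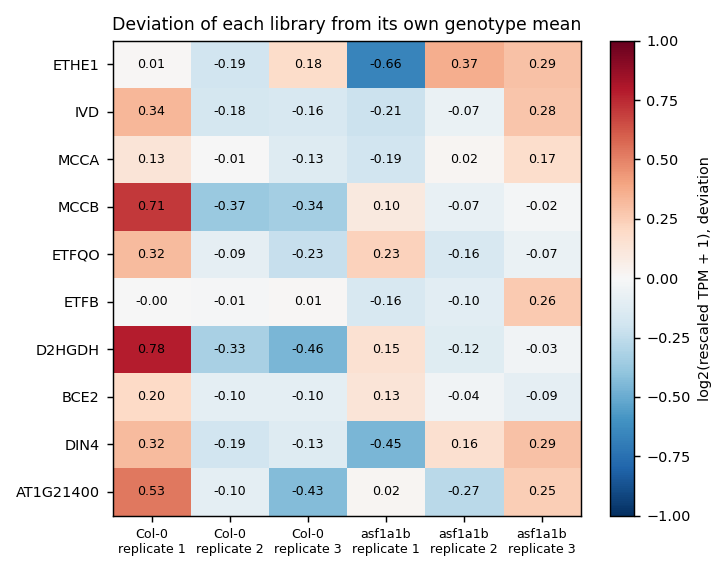
Deviation of each library from the mean of its genotype for the 10 genes, on the log2(rescaled TPM + 1) scale, with red above and blue below the mean. Col-0 replicate 1 is above its mean for MCCB (0.71) and D2HGDH (0.78), and asf1a1b replicate 1 is below its mean for ETHE1 (-0.66) and DIN4 (-0.45).

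By mean level, the order in Col-0 was MCCA, IVD, ETFQO, ETFB, AT1G21400, MCCB, D2HGDH, BCE2, DIN4 and ETHE1. Ranges of neighbours in that order overlapped except between IVD and ETFQO and between DIN4 and ETHE1. In asf1a1b the order was IVD, MCCA, ETHE1, ETFB, AT1G21400, DIN4, ETFQO, MCCB, D2HGDH and BCE2. There the ranges of neighbours were apart between MCCA and ETHE1 and between D2HGDH and BCE2. ETHE1 thus moved from the last place to the third, with a range from 12.9 to 27.3 that overlapped those of ETFB, AT1G21400, DIN4, ETFQO, MCCB and D2HGDH.

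The wider route of leucine, isoleucine and valine breakdown was described through 21 genes, 8 of them members. Of these, 20 were tested: 6 rose, 0 fell and 14 did not pass, with a median log2 fold change of 0.38 and 17 of 20 values above 0. Over all tested genes 16.1% rose and 30.6% passed in either direction. With the replicate number as a block, 10 passed, where 5825 of 14663 genes did. The count of breakdown genes that passed was 2 without Col-0 replicate 2 (2122 of 14713 genes) and 2 without asf1a1b replicate 3 (1767 of 14593). It was 11 without Col-0 replicate 1 (34.0% of all genes) and 14 without both libraries numbered 1 (51.8%). The 12 tested genes that are not members had a median of 0.28 and 2 of them rose, a share near the 16.1% of all genes. CHY1, a peroxisomal hydroxyisobutyryl-CoA hydrolase of valine breakdown, went from 22.8 ± 2.96 to 33.8 ± 2.28 rescaled TPM (log2 fold change 0.56 ± 0.13, adjusted p = 0.0169 by limma). HDH1, the hydroxyisobutyrate dehydrogenase of the same branch, went from 2.52 ± 0.556 to 4.89 ± 0.948 (0.74 ± 0.18, adjusted p = 0.0192). Each missed the threshold in 3 of the 6 fits that left out 1 library. ALDH6B2, the methylmalonate semialdehyde dehydrogenase that follows HDH1, had the lowest value of the route, a log2 fold change of -0.36 ± 0.12 that did not pass (adjusted p = 0.061 by limma). ETFA, at 2.61 ± 0.532 and 3.93 ± 0.237 rescaled TPM, just missed the threshold (adjusted p = 0.0505 by limma). The E3 genes MTLPD1 and MTLPD2, whose product also serves other mitochondrial complexes, had log2 fold changes of 0.22 and -0.08, and neither passed. The aminotransferase BCAT2 stood at 21.6 ± 4.44 and 25.4 ± 7.49 rescaled TPM, also without passing. BCAT1, the mitochondrial aminotransferase, was below the filter, with 3 recovered reads in Col-0 and 34 in asf1a1b, summed over libraries.

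**Figure D4:**
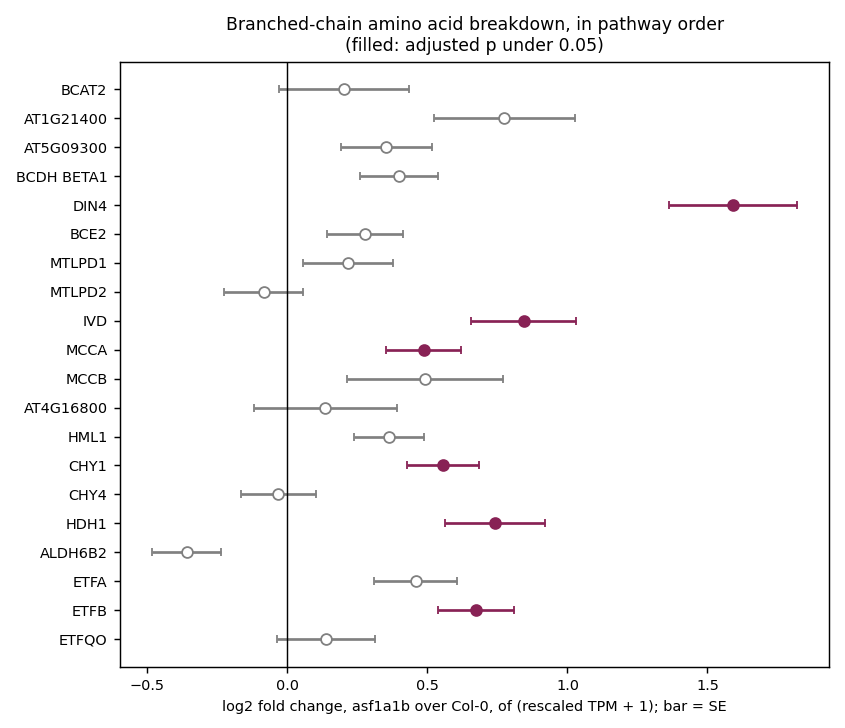
Log2 fold change of asf1a1b over Col-0, on the log2(rescaled TPM + 1) scale (x axis, bars show the SE), for the 20 tested genes of branched-chain amino acid breakdown in pathway order. The 6 filled points passed an adjusted p of 0.05, all to the right of 0, and DIN4 is the farthest at 1.59.

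ETHE1 was set beside its own partners in sulfur and cysteine breakdown. Of 5 tested genes, OASC rose (16.1% of all tested genes did) and 4 did not pass, with a median log2 fold change of 0.31. The count was 2 without Col-0 replicate 1 (34.0% of all genes passed) and 3 without both libraries numbered 1 (51.8%). It was 0 without Col-0 replicate 2 (2122 of 14713 genes), asf1a1b replicate 2 (2346 of 14536) or asf1a1b replicate 3 (1767 of 14593). OASC, a mitochondrial cysteine synthase, went from 1.45 ± 0.641 to 2.82 ± 0.168 rescaled TPM (adjusted p = 0.0428 by limma), a call lost under 8 of 13 alternatives. STR1, the mitochondrial sulfurtransferase that acts with ETHE1, stood at 102.7 ± 4.84 in Col-0 and 91.5 ± 10.1 in asf1a1b (adjusted p = 0.315 by limma). The sulfite oxidase SOX stood at 34.5 ± 0.985 and 38.1 ± 3.42 (adjusted p = 0.363). STR2 and the cyanoalanine synthase CYSC1 had log2 fold changes of 0.31 and 0.36 and did not pass, and the cysteine desulfhydrase DES1 was below the filter, with 2 and 12 reads per genotype. In the glyoxalase II family, to which ETHE1 belongs by sequence, GLX2-1 rose from 14.7 ± 1.60 to 19.2 ± 0.572 (log2 fold change 0.38, adjusted p = 0.0429 by limma), a call lost under 8 of 14 alternatives. The other 3 tested members, GLY2, GLX2-4 and GLX2-5, did not pass, with log2 fold changes between -0.17 and 0.23.

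Neither gene next to ETHE1 passed the test. MAP3KA, which ends 56 bases away on the other strand, stood at 11.9 rescaled TPM in the wild type and 14.4 in the mutant (adjusted p = 0.112 by limma), and NTMC2T6.1 at 10.9 and 8.75 (0.0806). Of 20 nearest neighbours of the 10 members, 14 were tested, 3 rose and 1 fell. Over all tested genes, 16.1% rose and 30.6% passed in either direction. Annotated genes on the opposite strand overlap 6 of the 10 members, by 9 to 300 bases, so that reads in those stretches cannot be assigned without strand, and the strand setting is not given in the sources used here. ETHE1, IVD, MCCB and AT1G21400 overlap none. Among the other genes named here with a call, CHY1, ALDH12A1, POP2, THA1, BZIP9 and CAB1 also overlap another annotated gene.

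The 5 nuclear genes whose profile over the 6 libraries was most like that of ETHE1 were taken by the root mean square difference of centred log2(rescaled TPM + 1) values, among 14077 genes. They were AT3G09440 (0.213), the senescence factor NAC6 (0.256), WRKY75 (0.309), AT2G25450 (0.313) and AT3G15450 (0.318). AT3G09440 held 18.4, 13.9 and 17.6 rescaled TPM in the wild type and 62.8, 161 and 184 in the mutant, with replicate 1 the lowest mutant library, as for ETHE1. Among the members, DIN4 came nearest, at place 171 with a difference of 0.757, and IVD followed at place 1075. ETFQO was the farthest member, at place 6102. The lysine gene LKR/SDH stood at place 15 (0.39) and the glutamate dehydrogenase gene GDH2 at place 43 (0.494). The profiles were not scaled, so these places largely follow the size of each gene's change between genotypes. ETHE1 was chosen on that same change, and the places are no separate support for a shared behaviour.

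Of 4 genes of lysine breakdown, which like the branched-chain route delivers electrons to ETF, 3 rose, 0 fell and 1 did not pass, with a median log2 fold change of 0.85. Of all tested genes, 16.1% rose and 30.6% passed in either direction. The lysine list holds D2HGDH, and 1 of its 4 genes passed without Col-0 replicate 2, where 2122 of 14713 genes did. LKR/SDH, the bifunctional enzyme that opens the pathway, held 5.34, 2.94 and 2.68 rescaled TPM in the wild type and 21.8, 34.5 and 26.9 in the mutant. It rose 7.59-fold (log2 fold change 2.65 ± 0.25, adjusted p = 0.00119 by limma) with no overlap. ALDH7B4, an aldehyde dehydrogenase, rose 2.04-fold (adjusted p = 0.011) and HGLS, which makes the D-2-hydroxyglutarate that D2HGDH oxidises, rose 1.62-fold (adjusted p = 0.0162). ALDH7B4 missed the threshold in 1 fit that left out a library and HGLS in 3. Of 16 tested genes for the breakdown of other amino acids, 8 rose, 1 fell and 7 did not pass, with a median of 0.49. The 9 calls became 5 without Col-0 replicate 2 (2122 of 14713 genes passed) and 4 without asf1a1b replicate 3 (1767 of 14593). Of 3 genes below the filter, which were named after their values were seen, the arginase gene ARGAH2 had 4 reads in Col-0 and 192 in asf1a1b, PRODH2 had 5 and 69, and GDH3 had 2 and 2. GDH2 rose 4.94-fold, from 15.2 ± 2.50 to 75.2 ± 35.0 rescaled TPM (adjusted p = 0.00677 by limma). ALDH12A1, the pyrroline-carboxylate dehydrogenase of proline breakdown, rose 3.55-fold (adjusted p = 0.00108), and POP2, the aminobutyrate transaminase, 1.97-fold (0.00364). The gene that fell was the threonine aldolase THA1, at 0.689 times its Col-0 level (adjusted p = 0.0346), named here after its value was seen, and it missed the threshold in 5 of 13 alternatives.

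Branched-chain amino acid synthesis, which runs in plastids, gave a median log2 fold change of 0.13 over 14 tested genes. Of these, 3 rose, 1 fell and 10 did not pass, where 16.1% of all tested genes rose and 30.6% passed. CSR1, the catalytic subunit of acetolactate synthase, rose 1.92-fold (adjusted p = 0.016 by limma, missed without 1 library in 3 of 6 fits) and the aminotransferase BCAT3 1.91-fold (0.00532), while the dihydroxyacid dehydratase gene DHAD fell to 0.587 times its Col-0 level (0.00835). Of 6 tested genes named for induction in darkness or early senescence, DIN4, itself a member, rose and 5 did not pass, with a median of 0.11. Over all tested genes, 16.1% rose and 30.6% passed in either direction. This list gave 2 calls without Col-0 replicate 1 (34.0% of all genes passed) and 4 without both libraries numbered 1 (51.8%). DIN10 and DIN11 were below the filter, at 15 and 1 recovered reads in the wild type against 357 and 40 in the mutant. Every mutant library was above every wild-type library for DIN10 but not for DIN11, where 24.6% of tested genes separated in that direction. ASN1, the dark-induced asparagine synthetase, stood at 411 ± 67.4 rescaled TPM in the wild type and 417 ± 32.2 in the mutant (adjusted p = 0.902 by limma), and, like DIN10 and DIN11, was named after its values were seen. Of the bZIP factors of groups C and S1, 5 were tested. BZIP9 rose 2.81-fold, from 1.30 ± 0.165 to 3.66 ± 1.08 (adjusted p = 0.0101 by limma), and 4 did not pass, where 16.1% of all tested genes rose. The calls were 3 without Col-0 replicate 1 (34.0% of all genes passed) and 3 without both libraries numbered 1 (51.8%). There were 0 without asf1a1b replicate 3 (1767 of 14593 genes). The other 4 factors were below the filter and were named after their values were seen. BZIP63 had 5 recovered reads in Col-0 and 64 in asf1a1b, and BZIP44 had 1 and 43. The levels of BZIP63 and BZIP44 did not overlap, a separation that 24.6% of tested genes showed in that direction. It rests on very few reads, as asf1a1b replicate 1 held 7 for BZIP63 and 2 for BZIP44. The levels of BZIP2 (60 and 95 reads) and BZIP11 (36 and 71) overlapped.

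**Figure D5:**
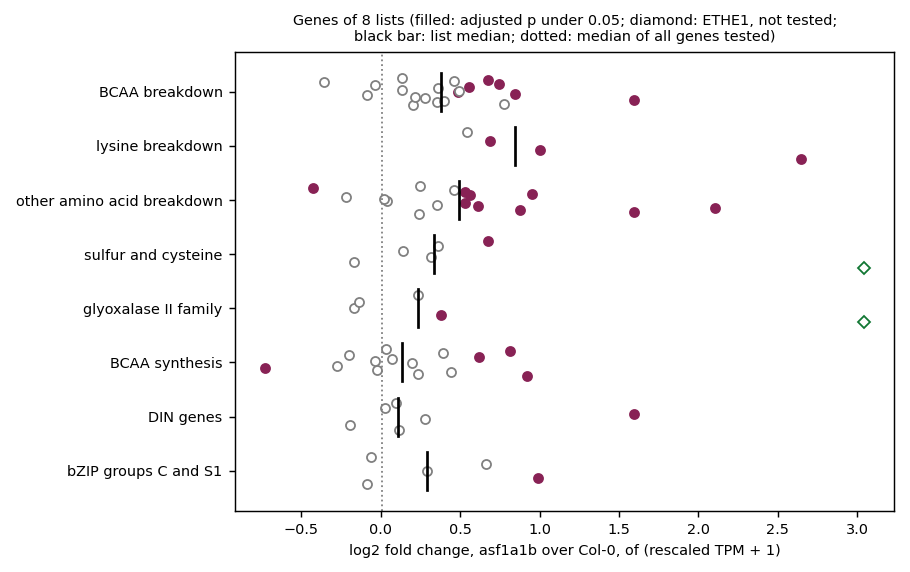
Log2 fold change of asf1a1b over Col-0, on the log2(rescaled TPM + 1) scale (x axis), for each tested gene of 8 lists (rows), filled where the adjusted p was under 0.05. A black bar marks the list median, with ETHE1 included where the list holds it (0.34 for sulfur and cysteine, 0.23 for glyoxalase II). The dotted line is the median of all tested genes. ETHE1, drawn as an open diamond at 3.05 in both lists that hold it, was not tested, and LKR/SDH at 2.65 is the farthest tested gene.

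The summed level of 6 marker genes of green tissue ran from 10.4 to 23.8 rescaled TPM in the wild type and from 54.2 to 111 in the mutant. It was lowest within the mutant in replicate 1. Most of that sum came from 1 gene, RBCS1A, at 8.98 to 23.2 in the wild type and 49.3 to 91.3 in the mutant. Of 4 tested, RBCS1A, CAB1 and CAB3 rose and RBCS3B did not pass. CAB1, CAB3 and RBCS3B had means below 1 in Col-0 and entered the test only through their levels in asf1a1b, so their count is no support for a rise. RBCS2B was listed at 0 in every Col-0 library and in asf1a1b replicate 1. The part of green tissue in the changes of the breakdown genes was not tested.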

How the data were processed

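RNA-seq of seeds labelled as fresh was analysed in 6 libraries, grouped by the sample titles. The submitters' processing notes name the TAIR10 build, HISAT2 2.2.1 and fastp 0.23.4. How reads were counted, with which annotation and strand setting, and what test the authors ran is not stated there. The authors deposited signal values that the table's name calls TPM. Library totals of 915126 to 1049698 differ, so these values were rescaled between libraries by an unstated step. A second table holds the authors' deposited log2 fold changes, p-values and marks for 15257 genes, and 0 columns were left unused.

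Genes with a mean of at least 1 entered a two-sided test of genotype, without other terms, on log2(value + 1) in R 4.3.3 (limma 3.58.1 with a trend), at a threshold of 0.05 after Benjamini-Hochberg adjustment over 14663 genes. The pseudocount makes log2 fold changes of low genes too small. Fold differences are ratios of means of the deposited values. The planned design foresaw raw counts or TPM, and its TPM test was used.

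Whole reads were recovered for 32548 genes from merged exon lengths of the RefSeq annotation TAIR10.1 and 1 step per library. Of checked values under 200 reads, 99.33% to 99.43% lay within 0.1 of a whole number. The other 285 identifiers had no matched length. A limma-voom fit on these reads, other scalings, pseudocounts and filters, a replicate block and leaving out libraries were the alternatives. Same-numbered libraries of the genotypes deviated together (correlations 0.427, 0.144 and 0.327 for numbers 1, 2 and 3). Replicate 2 of asf1a1b was closer to replicate 3 of Col-0 (0.381) than to replicate 2 of Col-0. Pairing by number was therefore not established for numbers 2 and 3, and the labels do not state it. The replicate block treats same-numbered libraries as pairs all the same.

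The members and the gene lists were chosen with earlier results of these data known. Named genes are the members, the branched-chain and sulfur breakdown lists, up to 3 genes past the threshold with the largest change in each other list, the 5 genes most like ETHE1, and ASF1A and ASF1B. Other genes named are marker genes, neighbours or list members without a call. The code was tested on simulated data. Other steps used scipy 1.17.1, pandas 2.3.3, numpy 2.4.6 and matplotlib 3.10.9 under Python 3.11.15.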

Additional observations from a re-analysis of the deposited data

How the results depend on the processing

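All 9 tested members had log2 fold changes above 0 in the reported fit and in all 14 alternatives. So did ETHE1, which was chosen because it rose. The 140 alternative values, ETHE1 included, come from refits of the same libraries and are not separate observations. Over all tested genes, 7423 of 14663 log2 fold changes were above 0 in the reported fit. DIN4 and ETFB passed the test in the reported fit and in every alternative. The count of members other than ETHE1 that passed, 4 of 9, ran from 2 to 8 when 1 library was left out and was 8 without both libraries numbered 1. ETHE1's log2 fold change, 3.05 as reported, was 3.58 with a pseudocount of 0.1 and 3.62 by limma-voom on recovered reads. AT1G21400 also passed with libraries scaled to equal totals (adjusted p = 0.0326 by limma) and by limma-voom (0.0373).

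The count of breakdown genes for branched-chain amino acids, 6, was 10 with the replicate block, 14 without both libraries numbered 1, and 2 to 11 with 1 library left out. The block treats same-numbered libraries as pairs, which was not established for numbers 2 and 3. Among the members, the block changed only the call on AT1G21400, which passed (adjusted p = 0.0358 by limma). Apart from the branched-chain count, the block changed no count by over 1.5 times. Over all genes, 4494 of 14663 tested passed. The count was 5825 of 14663 with the replicate block, 2544 of 9860 with a mean of at least 5 and 7588 of 14655 without both libraries numbered 1. With 1 library left out it ran from 1767 of 14593 to 4999 of 14620. The sulfur list's 1 call became 0 under median-of-ratios scaling, scaling to equal totals, a pseudocount of 0.1 and no filter. It was also 0 with a mean of at least 5, a filter that leaves OASC untested. The count was 3 without both libraries numbered 1, and 0 to 2 with 1 left out. The 1 call of glyoxalase II became 0 under both other scalings and limma-voom, and was 0 to 1 with 1 library left out. Lysine breakdown ran from 1 to 4 and other amino acid breakdown from 4 to 11 with 1 left out. Dark-induced genes gave 2 calls with no filter, 4 without both libraries numbered 1 and 1 to 2 with 1 left out. The bZIP list gave 0 calls with a mean of at least 5, a filter that removes BZIP9 from the test, so that 0 is no lost call. It gave 2 with no filter, 3 without both libraries numbered 1 and 0 to 3 with 1 left out. The difference in the MCCA to MCCB ratio, -0.157 (asf1a1b minus Col-0), turned to 0.183, 0.00428 and 0.0863 without Col-0 replicate 2, Col-0 replicate 3 or asf1a1b replicate 1. Over all fits without 1 library it ran from -0.658 to 0.183. The difference in ETFB to ETFA, 0.36, turned to -0.0996 and -0.0787 without Col-0 replicate 3 or asf1a1b replicate 3, in a range up to 0.848. The difference in the AT1G21400 share, 3.27 percentage points, ran from 1.05 to 5.77. The causes were not tested. Low genes such as ETHE1 in Col-0 rest on few reads, which limits their ratios.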
